A study of Rattus norvegicus with 252 samples.

Results

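ENSRNOG00000004179, ENSRNOG00000057221, ENSRNOG00000012349, ENSRNOG00000002336 and ENSRNOG00000048847 are 5 rat genes selected on their counts in the striatum of 2-month-old rats, where they had some of the lowest p-values among genes that were higher in animals carrying the Q130 knock-in. They are 5 of 32883 genes listed in the count table. RNA was sequenced from 4 brain tissues of 60 rats, which gave 24 groups of 10 study libraries (5 from females, 5 from males), 240 in all. The groups were wild type (WT) and heterozygous Q130 knock-in Long Evans rats, the latter a model of Huntington disease, aged 2, 6 or 12 months, and each animal gave striatum, cortex, hippocampus and cerebellum. The 160 study libraries of the 2 younger ages were run as batch 1 and the 80 of the oldest as batch 2, and WT and Q130 animals of an age were always in the same batch. Another 12 striatal libraries were repeats, run in batch 2, of animals from batch 1. The Q130 animals kept 1 normal copy of the targeted gene, since they were heterozygous.

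Huntington disease follows from a lengthened stretch of CAG triplets in the huntingtin gene, which lengthens a run of glutamines near the start of the protein. Huntingtin is made in most cells, yet the neurons that project out of the striatum are lost early, and the striatum is the forebrain region through which cortex and dopamine neurons shape movement. The hippocampus serves memory and the cerebellum motor coordination, and both are less affected early in the disease. The files give these 5 genes by Ensembl identifier alone and pair none with a symbol, and none of the identifiers could be matched to the reference table, so what the proteins do is not stated here and no sequence is shown. The markers of striatal neurons and other cell types could not be looked up for the same reason.

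Total counts ran from 25.3 to 50.8 M per library with a median of 34.3 M. By the correlation of log2 CPM (counts per 1000000 counts, scaled by TMM) with the other libraries of its tissue, 9 of the 240 study libraries stood apart, with a median correlation of 0.859 to 0.963 against at least 0.973 in the rest, and 8 of the 9 were Q130. There were 3 of them in the striatum, the libraries labelled Q130 male 1 at 6 months and Q130 female 2 and male 3 at 12 months, and none in the striatum at 2 months. In 3 of the 9, among them the first 2 of these striatal ones, the correlation was higher with another tissue. Where leaving these libraries out ends a call or moves an estimate given here by over 1.5 times, the value without them stands beside it. For means over several genes, the range of the other libraries is given instead. Across the 60 animals, 88 genes varied together in cortex, hippocampus and cerebellum, and by these genes all 60 first striatal libraries resembled their own animal most. Only 2 of the 12 repeat libraries did so, and the other 10 resembled another of the repeated animals. The repeats are still used by their labels, which this check puts in doubt, and no conclusion on genotype is drawn from them.

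In the striatum at 2 months, the comparison that chose them, all 5 genes were higher in Q130 rats, by 1.15 to 1.42 times on mean CPM. These values describe the choice and carry no test. ENSRNOG00000004179 lay between 6.36 and 9.59 CPM in the 10 WT libraries, with a median of 7.81. It lay between 8.16 and 14.2 CPM in the 10 Q130 libraries, with a median of 11.3. The groups overlapped, and 8 Q130 libraries were above the highest WT library. Its log2 fold change was 0.50 ± 0.08 (SE), the largest of the 5, on 209 to 492 counts per library.

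ENSRNOG00000057221 was the most abundant of the 5 in CPM, with a lowest, median and highest value of 257, 281 and 312 CPM in WT and 270, 341 and 372 CPM in Q130. Only 1 Q130 library lay below the WT median, and 8 lay above the WT maximum. ENSRNOG00000002336 had 187, 200 and 234 CPM in WT and 200, 235 and 252 CPM in Q130. All 10 Q130 libraries were above the WT median, and 5 were above the WT maximum. The log2 fold changes of this pair were 0.26 ± 0.04 and 0.20 ± 0.04 (SE).

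The other 2 genes were lower in level. ENSRNOG00000012349 had a lowest, median and highest value of 35.1, 44 and 47.1 CPM in WT and 46.2, 51 and 53.6 CPM in Q130. ENSRNOG00000048847 had 20, 23.5 and 29.5 CPM in WT and 24.4, 29.5 and 33.2 CPM in Q130. For the first, 7 Q130 libraries exceeded every WT library. For the second, 5 did, and 1 WT female at 29.5 CPM lay inside the Q130 range while 8 WT libraries lay below all Q130 libraries. Their log2 fold changes were 0.22 ± 0.04 and 0.31 ± 0.06 (SE).

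**Figure D1:**
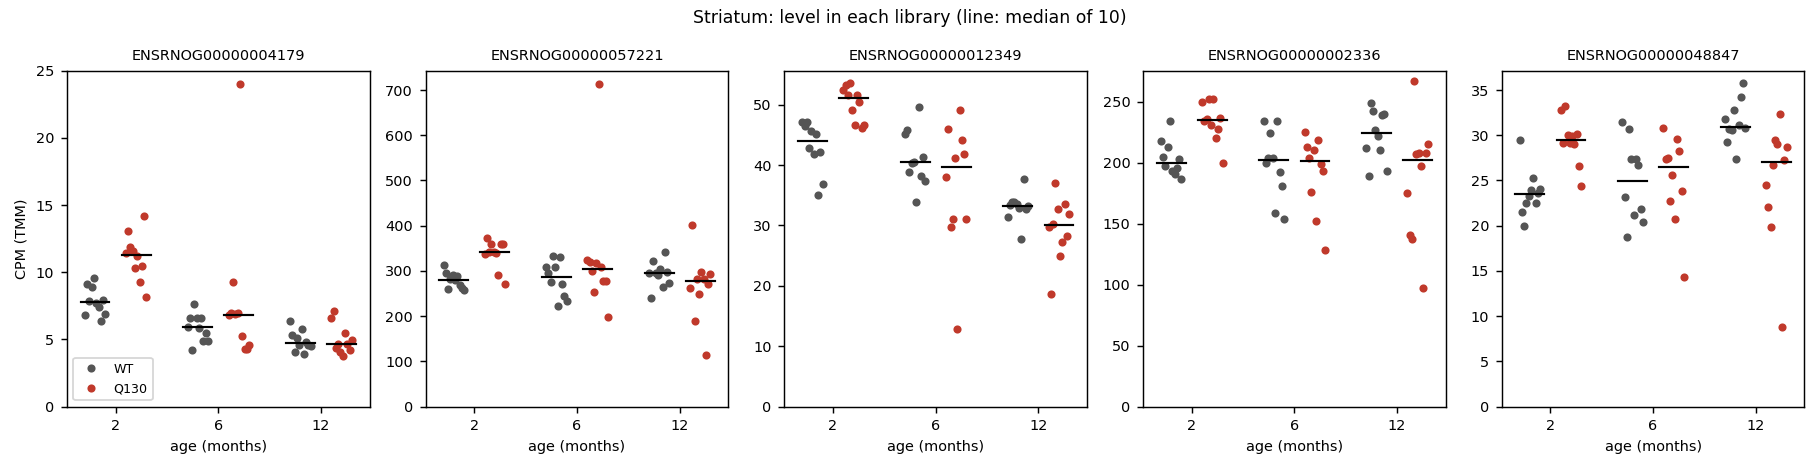
Level of each gene in CPM (linear axis from 0) in the 60 striatal study libraries, by age in months, with WT in grey and Q130 in red; each point is 1 library and each black line the median of 10. At 2 months the Q130 medians lie above the WT medians in all 5 panels, and at 12 months they do not; the point at 24 CPM in the first panel is the library labelled Q130 male 1 at 6 months.

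The choice has an edge that is not sharp. Ordered by p among genes higher in Q130, the 5 genes held places 1, 2, 4, 5 and 6. ENSRNOG00000005700, which is not among the 5, held place 3 with a log2 fold change of 0.17 ± 0.03 (SE). ENSRNOG00000001274 at place 7 had 0.18 ± 0.03 and ENSRNOG00000010063 at place 8 had 0.28 ± 0.05, against 0.31 ± 0.06 for ENSRNOG00000048847 at place 6. In all, 182 of 15500 tested genes were called higher in that comparison, 1.17%, and all 5 are among them by construction. When each of the 20 libraries was left out in turn, between 2 and 5 of the 5 genes kept a place among the first 6. In a joint fit of all 60 striatal libraries the estimates at 2 months were alike, but with larger standard errors, such as 0.18 for ENSRNOG00000004179 in place of 0.08, and 0 of the 5 were called. That fit included the striatal libraries that stood apart, and of 16113 genes it called 0 higher and 1 lower at 2 months.

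Both sexes showed the higher level at 2 months, in the same libraries that chose the genes, so this paragraph is a description too. In females, ENSRNOG00000004179 averaged 8.46 ± 1.13 CPM in WT and 11.6 ± 1.04 CPM in Q130 (SD, n = 5), and in males 7.28 ± 0.643 and 10.7 ± 2.3 CPM. For ENSRNOG00000048847 the means were 23.4 ± 3.64 and 30.8 ± 2.01 CPM in females and 23.9 ± 1 and 28 ± 2.45 CPM in males. The Q130 females did not overlap the WT females for ENSRNOG00000004179, ENSRNOG00000057221 and ENSRNOG00000012349, and the Q130 males overlapped no WT male for ENSRNOG00000004179 and ENSRNOG00000012349. How many of all genes lacked overlap in these sets was not counted, so nothing particular to the 5 genes is read from this. The identifiers of the animals have a first part that several animals share. Wherever both genotypes shared it, the Q130 mean was above the WT mean for all 5 genes. Each of these means rests on 1 to 3 of the libraries that chose the genes, so a higher value in most parts follows from the choice.

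Genes enriched in a tissue moved in the same striatal libraries. Taking genes at least 2 log2 units higher in 1 tissue than in every other in WT libraries of 6 months, the mean over 102 striatum-enriched genes came to 4.29 ± 0.0967 log2 CPM in Q130 and 4.13 ± 0.0884 in WT (SD, n = 10), and all 10 Q130 libraries were above the WT median. The mean over 55 hippocampus-enriched genes was -0.395 ± 0.177 in WT and -0.538 ± 0.094 in Q130, and over 53 cortex-enriched genes -0.852 ± 0.179 and -1.03 ± 0.209. Over 292 cerebellum-enriched genes it was 0.494 ± 0.183 in WT and 0.444 ± 0.0941 in Q130. So striatum-enriched genes were higher and hippocampus- and cortex-enriched genes lower on average, beside the 5 genes. All 102 striatum-enriched genes passed the filter on low counts, but only 35 of the hippocampus-enriched and 24 of the cortex-enriched ones did. The last 2 means thus rest in part on genes of very low counts. Called higher were 18 striatum-enriched and 2 cerebellum-enriched genes, and called lower 1 cortex-enriched and 0 hippocampus-enriched genes. Of all 15500 genes tested, 182 were called higher and 211 lower. Within genotype and sex, the deviations of the striatum-enriched mean correlated with those of ENSRNOG00000057221 at r = 0.64, ENSRNOG00000002336 at 0.57 and ENSRNOG00000048847 at 0.48, but with those of ENSRNOG00000004179 at 0.19 and ENSRNOG00000012349 at -0.05, over 20 libraries that share depth and scaling. In the same order of genes, r was -0.49, -0.41, -0.43, -0.12 and 0.23 with the cortex-enriched mean. It was 0.03, -0.06, -0.07, 0.32 and 0.37 with the hippocampus-enriched mean, and -0.02, -0.17, -0.225, 0.33 and 0.21 with the cerebellum-enriched mean. The part of tissue makeup in the 5 differences was not tested. In bulk tissue, a change in the number of cells of a type and a change in RNA per cell cannot be told apart.

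The first independent question was whether the 5 genes were also higher in the striatum of older Q130 rats, which the choice did not use. None was called at 6 months, at 12 months or in both ages together (quasi-likelihood test of edgeR, p under 0.05 after Benjamini-Hochberg adjustment). Of all genes tested, 0% were called at 6 months, 0% at 12 months and 0.0126% in both together, so these comparisons called almost no gene at all. DESeq2 and limma-voom called none of the 5 either. At an unadjusted p under 0.05 (edgeR's quasi-likelihood test), 0 of the 5 genes passed in both ages together, against 1606 of all 15929 genes.

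At 6 months, ENSRNOG00000004179 ran from 4.19 to 7.66 CPM in WT with a median of 5.89. In Q130 it ran from 4.31 to 24 CPM with a median of 6.82. The value of 24 CPM belonged to the library labelled male 1, whose profile was closer to hippocampus, and the next highest was 9.26 CPM. The hippocampal library of the same animal, labelled male 5, also stood apart and was closer to another tissue than to its own, and whether the 2 samples were exchanged was not tested. The log2 fold change was 0.44 ± 0.27 (SE) with all libraries and 0.01 ± 0.11 without that library. The same library held 713 CPM of ENSRNOG00000057221, against at most 324 CPM in the other Q130 libraries, and leaving it out moved that gene's log2 fold change from 0.22 ± 0.17 to 0.01 ± 0.08 (SE). It held the lowest value of ENSRNOG00000012349, 12.8 CPM, and without it the log2 fold change moved from -0.17 ± 0.16 to -0.07 ± 0.09. ENSRNOG00000002336 and ENSRNOG00000048847 differed by -0.05 ± 0.09 and 0.01 ± 0.12 with all libraries, and by -0.03 ± 0.09 and 0.02 ± 0.12 without it. Without that library, the log2 fold changes of all 5 genes at 6 months were smaller than their standard errors.

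At 12 months the estimates of 4 of the 5 genes were below 0. ENSRNOG00000048847 ran from 27.4 to 35.8 CPM in WT with a median of 31, and from 8.85 to 32.4 CPM in Q130 with a median of 27. There, 6 Q130 libraries lay below the lowest WT library, the reverse of the order at 2 months. The log2 fold change was -0.33 ± 0.15 (SE, unadjusted p = 0.0393, adjusted p = 0.496 with edgeR's quasi-likelihood test). Without the libraries labelled female 2 and male 3 it was -0.20 ± 0.06 (adjusted p = 0.264, the same test). The mean over 98 striatum-enriched genes was lower in the same Q130 libraries, at 3.78 ± 0.55 log2 CPM against 4.13 ± 0.098 in WT (SD, n = 10), and 0 of 10 Q130 libraries exceeded the WT median. The part of this in the difference was not tested.

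ENSRNOG00000002336 had a lowest, median and highest value of 189, 225 and 249 CPM in WT and 97.3, 202 and 267 CPM in Q130 at 12 months. Its log2 fold change was -0.25 ± 0.13 (SE), and -0.13 ± 0.09 without the 2 libraries. ENSRNOG00000012349 had -0.15 ± 0.09, with -0.12 ± 0.06 without both libraries and -0.09 without female 2 alone. ENSRNOG00000057221 had -0.14 ± 0.14, with -0.13 ± 0.07 without both, -0.05 without male 3 alone and -0.22 without female 2 alone. ENSRNOG00000004179, the gene with the largest difference at 2 months, had 4.71 CPM as its WT median and 4.67 as its Q130 median, and a log2 fold change of 0.03 ± 0.12, or -0.03 ± 0.11 without both libraries. No adjusted p of the 5 genes at 12 months was below 0.496 with edgeR's quasi-likelihood test.

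With the 40 libraries of 6 and 12 months in 1 fit, the log2 fold changes were 0.23 for ENSRNOG00000004179, with a 95% interval from -0.07 to 0.54, and 0.04 for ENSRNOG00000057221, from -0.19 to 0.27. They were -0.17 for ENSRNOG00000012349 (-0.35 to 0.02), -0.16 for ENSRNOG00000002336 (-0.32 to 0.01) and -0.16 for ENSRNOG00000048847 (-0.37 to 0.04). The first 2 intervals hold the estimates of 2 months, 0.50 and 0.26, and the last 3 do not hold theirs. Without the 3 libraries that stood apart, the estimates were -0.00062, -0.06, -0.10, -0.08 and -0.08, and the upper bounds were 0.16, 0.07, 0.02, 0.06 and 0.08 in the same order, each below the estimate of 2 months. Because the values of 2 months were chosen for being high, the difference between ages was not tested.

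Within the other 3 tissues no genotype difference of the 5 genes was called at any age. The share of all genes called was 0.00645% in cortex at 2 months, 0.287% in cerebellum at 6 months and 1.57% in cerebellum at 12 months, and 0% in the other 6 comparisons of these tissues. Over the 11 comparisons outside striatum at 2 months, 52 tests of the 5 genes were made, with 23 estimates above and 29 below 0, a lowest adjusted p of 0.238 and 3 unadjusted p-values under 0.05 (edgeR's quasi-likelihood test). DESeq2 called 0 of those it gave an adjusted p. At 2 months, the age of the choice, the estimates in cortex ran from -0.04 for ENSRNOG00000048847 to 0.19 for ENSRNOG00000004179, and those in hippocampus from -0.04 for ENSRNOG00000012349 to 0.19 for ENSRNOG00000004179. Thus ENSRNOG00000004179 had the highest estimate in both tissues, each within 1.5 times its standard error of 0.

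The lowest unadjusted p belonged to ENSRNOG00000004179 in the hippocampus at 12 months, where the direction was the opposite one. Levels ran from 15.4 to 31.6 CPM in WT with a median of 22.9, and from 10.6 to 23.5 CPM in Q130 with a median of 17.9. Only 1 Q130 library exceeded the WT median and 3 lay below the WT minimum. The log2 fold change was -0.36 ± 0.11 (SE, unadjusted p = 0.00348, adjusted p = 0.9997 with edgeR's quasi-likelihood test). In the same tissue at 6 months the estimate was -0.38 ± 0.24, or -0.42 ± 0.17 without the libraries labelled male 3 and male 5, and at 2 months 0.19 ± 0.13.

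The third test with an unadjusted p under 0.05, beside that one and ENSRNOG00000048847 in the striatum at 12 months, was ENSRNOG00000002336 in the cerebellum at 12 months. It ran from 25.5 to 32.5 CPM in WT and from 25.6 to 28.2 CPM in Q130, with a log2 fold change of -0.10 ± 0.04 (SE, adjusted p = 0.238 with edgeR's quasi-likelihood test). No Q130 library exceeded the WT median there. Of all genes at 12 months, 716 of 15317 in hippocampus, 1505 of 15426 in striatum and 2899 of 15177 in cerebellum had an unadjusted p under 0.05 by the same test. ENSRNOG00000004179 did not pass the filter on low counts in cerebellum, where its group means were 0.119 to 0.413 CPM. Even so, the WT median there was exceeded by 9 of 10 Q130 libraries at 6 months and by 9 of 10 at 12 months, with means of 0.413 against 0.228 CPM and 0.387 against 0.119 CPM. With no filter, the log2 fold changes were 0.79 ± 0.55 and 1.72 ± 0.53 (SE), with unadjusted p = 0.169 and 0.00376 and adjusted p = 0.604 and 0.131 by edgeR's quasi-likelihood test. DESeq2 gave no adjusted p for the gene in these comparisons. At 2 months 4 Q130 libraries were above the WT median.

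**Figure D2:**
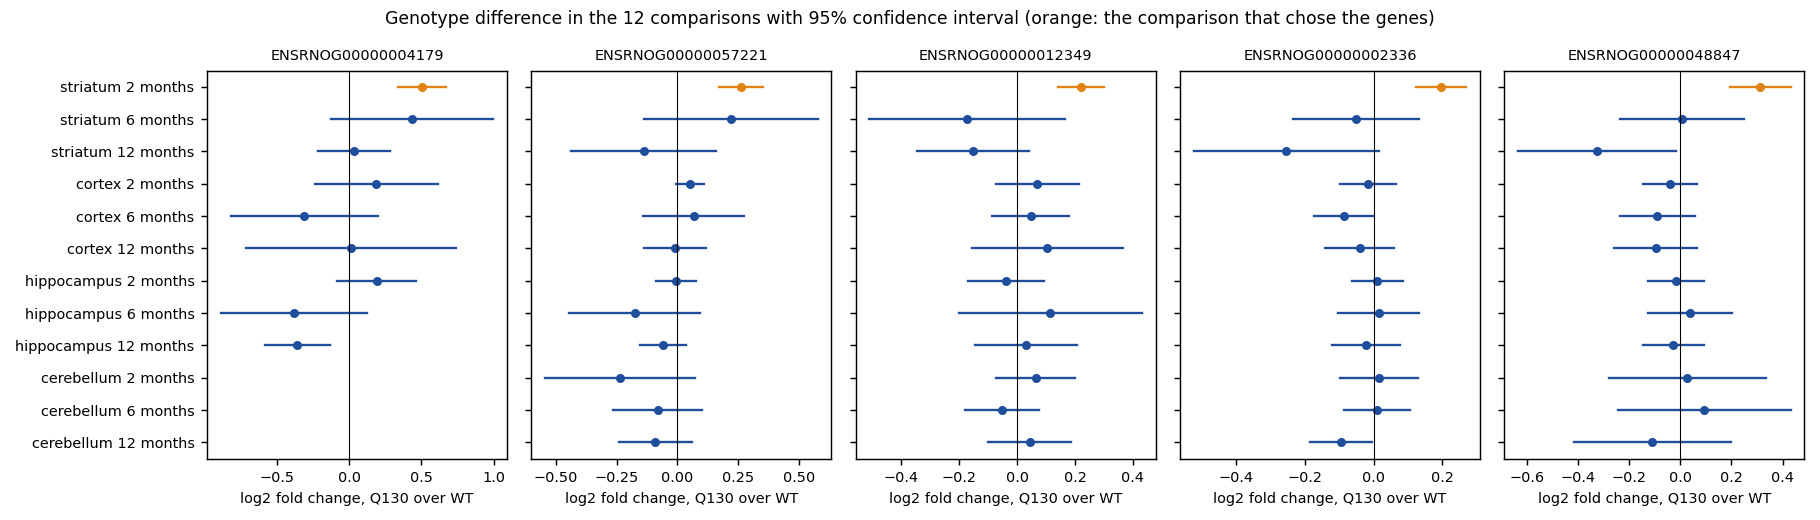
Log2 fold change of Q130 over WT for each gene (x axis) in the 12 comparisons of tissue and age (rows), with its 95% confidence interval; orange marks the comparison that chose the genes and blue the others. The orange intervals lie above 0, all but 3 of the blue ones include 0, and the x axes differ between panels; ENSRNOG00000004179 did not pass the filter on low counts in cerebellum and has no point there.

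The 5 genes differ in where they are made. In WT rats of 6 months, which the choice did not use, 4 of 5 were called in each comparison of striatum with another tissue, against 71.8% of all genes for cortex, 67.5% for hippocampus and 80% for cerebellum, so such calls are common. ENSRNOG00000004179 was highest in hippocampus at 26.5 ± 7.56 CPM (SD, n = 10), followed by striatum at 5.86 ± 1.04, cortex at 1.27 ± 0.463 and cerebellum at 0.228 ± 0.263. Striatum differed from these 3 tissues by log2 fold changes of -2.13 ± 0.22, 2.22 ± 0.25 and 4.66 ± 0.31 (SE). The ranges of hippocampus, striatum and cortex did not overlap. It met the definition of a hippocampus-enriched gene used above.

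ENSRNOG00000057221 had the same order, with 757 ± 60.6 CPM in hippocampus, 282 ± 39.3 in striatum, 199 ± 36.5 in cortex and 20.7 ± 3.69 in cerebellum (SD, n = 10). The step from striatum to cortex was small, a log2 fold change of 0.52 ± 0.09 (SE), and the ranges of the 2 tissues overlapped. Striatum was 1.42 log2 units below hippocampus, with a fitted value of -1.42 ± 0.09. So the 2 genes of lowest p among the 5 were both more abundant in hippocampus than in striatum.

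ENSRNOG00000012349 ran the other way. It had 43.5 ± 4.9 CPM in cerebellum, 41.1 ± 4.64 in striatum, 20.7 ± 2.18 in cortex and 14.3 ± 1.53 in hippocampus (SD, n = 10). Cerebellum and striatum did not differ beyond their spread, with a log2 fold change of -0.07 ± 0.06 (SE, 95% interval -0.20 to 0.05, adjusted p = 0.272 with edgeR's quasi-likelihood test), whereas striatum was 0.99 ± 0.06 above cortex and 1.52 ± 0.06 above hippocampus on the log2 scale.

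ENSRNOG00000002336 was highest in striatum, at 199 ± 28.1 CPM, against 153 ± 7.95 in cortex, 143 ± 7.64 in hippocampus and 30 ± 2.06 in cerebellum (SD, n = 10). Striatum exceeded them by log2 fold changes of 0.37 ± 0.06, 0.46 ± 0.06 and 2.73 ± 0.06 (SE). ENSRNOG00000048847 had nearly the same level in the 3 forebrain tissues, 26.2 ± 2.47 CPM in cortex, 24.9 ± 4.44 in striatum and 22.4 ± 1.99 in hippocampus, and 3.89 ± 1.03 in cerebellum. Its difference between striatum and cortex was -0.09 ± 0.09 on the log2 scale at 6 months (adjusted p = 0.405 with edgeR's quasi-likelihood test), with an interval from -0.27 to 0.10. In WT rats of 2 months it was -0.15 ± 0.06, called lower in striatum (adjusted p = 0.0204, the same test), with 23.6 ± 2.53 CPM in striatum and 26.2 ± 2.26 in cortex (SD, n = 10). In WT rats of 12 months it was 0.31 ± 0.05, called higher in striatum. The 2-month WT striatal libraries also served the choice of the genes, which favours genes that are low in them. The difference at 2 months and its call are thus a description. Whether the order of these tissues differs between ages was not tested. Its difference between striatum and hippocampus was 0.15 ± 0.09 at 6 months and 0.45 ± 0.05 at 12 months, where it was called too.

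**Figure D3:**
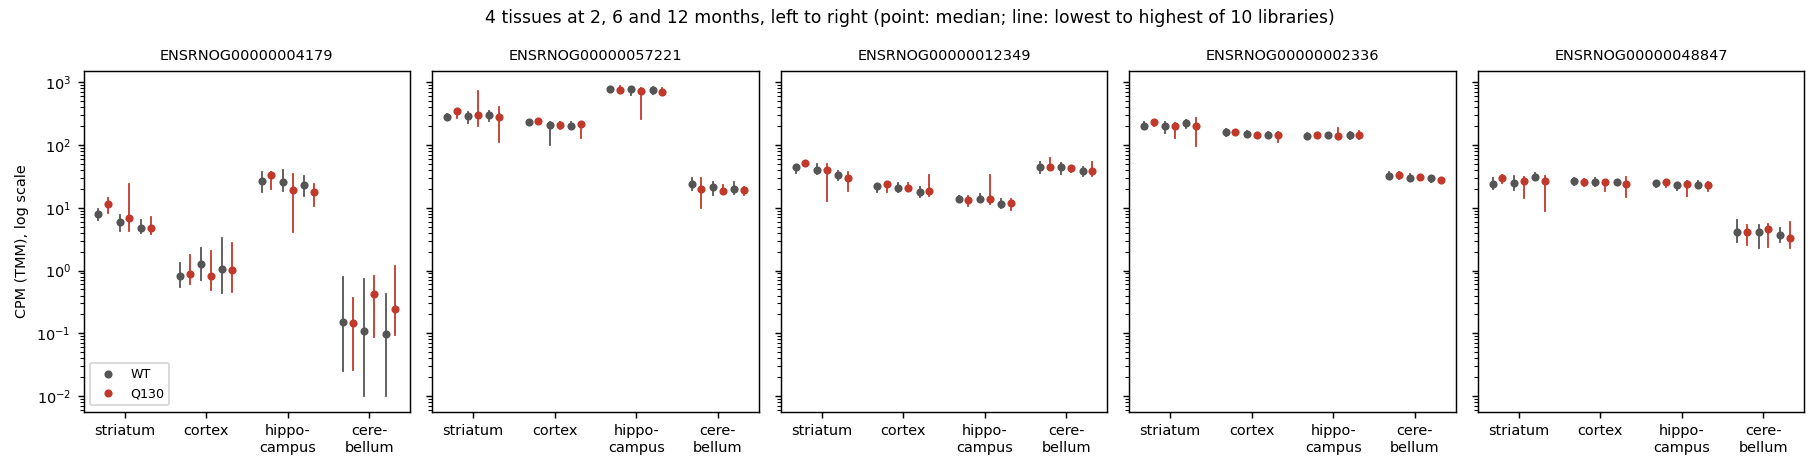
Median level of each gene in CPM on a log axis (points) with the lowest and highest of 10 libraries (lines), in 4 tissues and, within each tissue, at 2, 6 and 12 months from left to right, WT in grey and Q130 in red; values of 0 are drawn at 0.01 CPM. The first 2 genes peak in hippocampus, the third is highest in striatum and cerebellum, and the last 2 are lowest in cerebellum; single long lines come from libraries that stood apart.

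Per transcript length, on the TPM scale, where the transcripts of a library sum to 1000000, the order of the 5 genes in WT striatum of 6 months was ENSRNOG00000057221 with 119 ± 22.1 TPM, ENSRNOG00000002336 with 73.8 ± 13.6, ENSRNOG00000012349 with 33.4 ± 5.23, ENSRNOG00000048847 with 12.8 ± 2.58 and ENSRNOG00000004179 with 7.02 ± 1.55 (SD, n = 10). On counts alone ENSRNOG00000002336 stood closer to ENSRNOG00000057221, and its transcript is the longer one. The transcript table gave 1 transcript each for 4 of the genes, whose counts equalled those of the gene in all libraries to within 0.001 counts. Their lengths, computed from counts and the authors' FPKM values, which divide counts by length and depth, were 1373 bases for ENSRNOG00000004179, 3886 for ENSRNOG00000057221, 2019 for ENSRNOG00000012349 and 4419 for ENSRNOG00000002336.

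ENSRNOG00000048847 summed over 2 transcripts of 3894 and 618 bases, and the longer held 98.4% of its counts. In the striatum at 2 months the short one held 4.4 ± 2.49% of the gene's counts in WT and 2.62 ± 2.3% in Q130 (SD, n = 10), and the ranges overlapped. Summed over the 10 libraries, the long transcript had 7540 counts in WT and 9571 in Q130, and the short one 333.3 and 251. In striatum of 6 months its share was 4.34 ± 2.27% in WT and 3.57 ± 2.4% in Q130, and at 12 months 1.2 ± 1.32% and 1.08 ± 1.58%. In cortex, hippocampus and cerebellum the group means were 0.257 to 2.59%.

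With age, ENSRNOG00000004179 was lower in the striatum of older rats. In WT its median was 7.81 CPM at 2 months, 5.89 at 6 months and 4.71 at 12 months, and in Q130 it was 11.3, 6.82 and 4.67 CPM. From 2 to 6 months, both in batch 1, its log2 difference was -0.42 ± 0.09 (SE) in WT and -0.48 ± 0.26 in Q130, and -0.90 ± 0.11 in Q130 without the library labelled male 1. The libraries of 2 months served the choice, so these values are a description, and the Q130 value starts from a level chosen for being high. In Q130 striatum from 2 to 6 months without that library, ENSRNOG00000012349 differed by -0.35 ± 0.08, ENSRNOG00000002336 by -0.25 ± 0.07 and ENSRNOG00000057221 by -0.24 ± 0.07, while in WT the last 2 differed by -0.03 ± 0.05 and 0.01 ± 0.06.

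Outside the striatum, 2 members changed from 2 to 6 months, both in Q130 cortex, where 8.86% of all genes were called. ENSRNOG00000057221 fell by 0.17 on the log2 scale (SE 0.04, adjusted p = 0.0108 with edgeR's quasi-likelihood test), from 236 ± 9.39 to 208 ± 17 CPM (SD, n = 10). ENSRNOG00000002336 fell by 0.12 on that scale (SE 0.04, adjusted p = 0.0429, the same test), from 158 ± 7.56 to 144 ± 8.61 CPM. In WT cortex (3.55% of genes called), the estimates were -0.18 ± 0.09 and -0.05 ± 0.04, neither called. Without the WT library labelled male 4 at 6 months, which held 101 CPM of ENSRNOG00000057221 against 190 or more in the others, the WT value was -0.11 ± 0.03 and was called (adjusted p = 0.0271, the same test). Whether the 2 genotypes differ in this change was not tested.

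By edgeR's quasi-likelihood test no member was called for age in WT hippocampus (17.1% of genes called), Q130 hippocampus (1.05%), WT cerebellum (19.8%) or Q130 cerebellum (6.71%). In Q130 cerebellum DESeq2 called ENSRNOG00000004179 (1.34 ± 0.45, SE, adjusted p = 0.0398 by DESeq2). Without the 2 libraries of 2 months that stood apart there, males 1 and 2, ENSRNOG00000002336 was called (-0.15 ± 0.05, adjusted p = 0.0262 with edgeR's quasi-likelihood test). At an unadjusted p under 0.05 these 4 sets held ENSRNOG00000048847 in WT hippocampus, ENSRNOG00000004179 in Q130 hippocampus, ENSRNOG00000057221 and ENSRNOG00000002336 in WT cerebellum, and ENSRNOG00000012349 in Q130 cerebellum (edgeR's quasi-likelihood test). Of all genes, 4957 of 15474, 1869 of 15494, 5014 of 15342 and 3141 of 15369 did so in the same order of sets. In Q130 hippocampus ENSRNOG00000004179 had a median of 33.3 CPM at 2 months and 19 CPM at 6 months, a log2 difference of -0.64 ± 0.24 (SE, adjusted p = 0.259 with edgeR's quasi-likelihood test). Without the libraries labelled male 3 and male 5 of 6 months it was -0.64 ± 0.16 and was called (adjusted p = 0.0315, the same test). In WT hippocampus the gene had medians of 26.8 and 25.5 CPM, a log2 difference of -0.07 ± 0.14.

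The repeat libraries bear on how far levels at 12 months can be set beside younger ones. Between first and repeat libraries of the same 12 labels, 1 member was called, against 4.1% of all genes. That fit took the labelled animal as a block, and only 2 of the 12 repeats resembled that animal most. Its standard errors and p-values thus rest on a doubtful pairing. ENSRNOG00000012349 had a lowest, median and highest value of 36.8, 44.7 and 50.5 CPM in the 12 first libraries and 29.1, 35 and 44.6 CPM in the 12 repeats. It fell by 0.29 on the log2 scale in batch 2 (SE 0.06, adjusted p = 0.0059 with edgeR's quasi-likelihood test), and the 2 ranges overlapped. Its WT striatal level was 41.1 ± 4.64 CPM at 6 months and 33 ± 2.48 CPM at 12 months (SD, n = 10), and here age and batch cannot be told apart. The other 4 genes differed by 0.00 to 0.07 between batches, with intervals of -0.32 to 0.45 for ENSRNOG00000004179 and -0.15 to 0.16 for ENSRNOG00000057221.

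No member was called between females and males in any of the 12 sets of 1 tissue and age by edgeR's quasi-likelihood test, and 8 of 57 tests had an unadjusted p under 0.05. Among all genes, those at that unadjusted level ran from 699 of 15466 in hippocampus at 2 months to 1920 of 15500 in striatum at 2 months. The share of all genes called at 2, 6 and 12 months was 0.155, 0.135 and 0.0389% in striatum, 0.142, 0.155 and 0.072% in cortex, 0.116, 0.0776 and 0.392% in hippocampus and 0.111, 0.34 and 0.422% in cerebellum. In the striatum at 2 months, the set with the most genes at that unadjusted level, the female estimates were above the male ones for 4 members that reached it. These libraries chose the genes by p in a fit that held sex too, and a choice by p favours genes of small spread. The p-values and calls for sex in this set are thus a description and no independent test. ENSRNOG00000012349 was at 0.15 ± 0.04 on the log2 scale (SE, adjusted p = 0.138, the same test), and DESeq2 called this one. In the hippocampus at 12 months ENSRNOG00000004179 averaged 25.7 ± 4.43 CPM in WT females and 18.8 ± 3.93 in WT males, and 20.1 ± 2.54 and 14.7 ± 3.25 CPM in Q130 females and males (SD, n = 5). The log2 difference of females from males was 0.46 ± 0.11 (adjusted p = 0.0715 with edgeR's quasi-likelihood test), and DESeq2 called it (adjusted p = 0.00343).

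Among the 5 genes, 3 varied together across single striatal libraries. Over the 57 striatal libraries that did not stand apart, deviations from the means of group and sex correlated at r = 0.85 between ENSRNOG00000057221 and ENSRNOG00000002336, 0.71 between ENSRNOG00000002336 and ENSRNOG00000048847 and 0.70 between ENSRNOG00000057221 and ENSRNOG00000048847. ENSRNOG00000012349 correlated with these 3 at 0.50 to 0.61, and ENSRNOG00000004179 with the other 4 at 0.08 to 0.32. With all 60 libraries, ENSRNOG00000004179 and ENSRNOG00000012349 were at -0.65 and ENSRNOG00000057221 and ENSRNOG00000012349 at -0.46, so those 2 values rest on the 3 libraries that stood apart. These values describe libraries that share their depth and scaling.

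**Figure D4:**
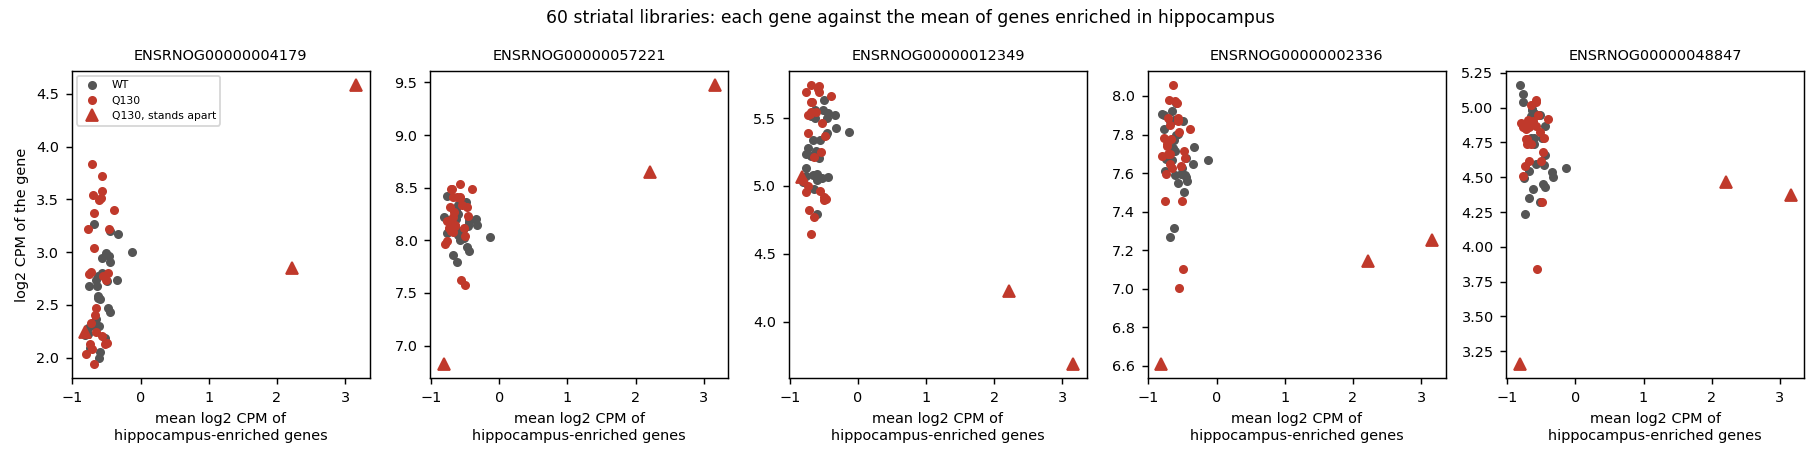
Log2 CPM of each gene (y axis) against the mean log2 CPM of hippocampus-enriched genes (x axis) in the 60 striatal study libraries. These enriched genes were defined in WT libraries of 2 months. WT is in grey and Q130 in red, and triangles are the 3 Q130 libraries that stood apart. Of these, 2 lie at 2.21 and 3.16 on the x axis, far right of the others, and have the lowest values of the third gene; the one at 3.16 has the highest value of the first 2 genes; the remaining triangle has the lowest value of ENSRNOG00000057221, ENSRNOG00000002336 and ENSRNOG00000048847.

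Over the 24 group means of tissue, age and genotype, ENSRNOG00000002336 and ENSRNOG00000048847 correlated at 0.99 and ENSRNOG00000004179 and ENSRNOG00000057221 at 0.92, while ENSRNOG00000012349 correlated negatively with the other 4, at -0.44 to -0.72. These points share tissues, so the values follow the order of tissues above. Among all genes with a mean of at least 1 CPM, the closest by this measure were ENSRNOG00000060550 for ENSRNOG00000004179 (r = 0.982), ENSRNOG00000025110 for ENSRNOG00000057221 (0.994), ENSRNOG00000017260 for ENSRNOG00000012349 (0.981), ENSRNOG00000017556 for ENSRNOG00000002336 (0.998) and ENSRNOG00000011951 for ENSRNOG00000048847 (0.997). By deviations over the 60 striatal libraries, the closest were ENSRNOG00000015268 for ENSRNOG00000004179 (0.82) and ENSRNOG00000016872 for ENSRNOG00000057221 (0.97). None of the 3 closest genes of any member by deviations over 60 libraries was among its 3 closest over the 57, where the highest values were 0.53 for ENSRNOG00000004179 and 0.93 for ENSRNOG00000057221.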

How the data were processed

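RNA was measured in 252 libraries, 240 of them study libraries and 12 repeats. The authors deposited expected counts per gene and per transcript. The sources used here name no aligner, counter or genome build. A gene table the authors deposited under the name FPKM sums to the same total in every column and is on the TPM scale; the FPKM values they deposited per transcript are true FPKM and were used for lengths alone. Columns spelled with dots were taken as repeats, an inference from names. The members and lists were chosen with earlier results of these data known.

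Expected counts were rounded. Genotypes were compared within a tissue and age with sex as covariate (filterByExpr, TMM, robust quasi-likelihood F test of edgeR 4.0.16, in R 4.3.3), with calls at a Benjamini-Hochberg adjusted p under 0.05 over all genes tested. Tissue fits had the animal as a block, age fits sex, sex fits genotype, and the batch fit the labelled animal. The replicates are separate animals. Levels are CPM with TMM library sizes over all libraries, and log2 CPM used a prior count of 2. Standard errors belong to log2 fold changes, and intervals have a level of 95%. Alternatives were DESeq2 1.42.0, limma-voom (limma 3.58.1), RLE scaling, no filter, leaving out libraries, blocks and a joint fit; the batch fit without the animal block was added after seeing the data. The fit was tested on simulated counts. Libraries stood apart at a median correlation under 0.97 over genes with at least 10 counts on average. The 88 genes of the animal check had correlations above 0.6 between each pair of the 3 tissues and at least 20 counts on average.

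Named genes are the 5 members, the genes beside them in order of p, and the genes closest to each in pattern, of which the closest are given. Marker lists, families and the targeted gene were written as symbols, and 0 of 32883 identifiers matched the reference table, so they are not analysed here. ENSRNOG00000005700 and the genes at places 7 and 8 stand in for the planned places 6 and 7, because 1 gene of low p was not listed.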

Additional observations from a re-analysis of the deposited data

Results flagged for a closer look

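In 120 groups of 10 libraries (5 genes in 24 groups), the highest or lowest library was far from the rest by Dixon's criterion in 14, where chance gives about 1 in 20, or 6. Of the 14, 11 were in libraries that stood apart from their tissue as a whole.

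The 6-month Q130 library labelled striatum, male 1, was highest for ENSRNOG00000004179 (24 CPM, next 9.26) and ENSRNOG00000057221 (713 CPM, next 324) and lowest for ENSRNOG00000012349 (12.8 CPM, next 29.8). The 6-month Q130 library labelled hippocampus, male 5, was lowest for ENSRNOG00000057221 (255 CPM, next 572) and highest for ENSRNOG00000012349 (33.6 CPM, next 15.1) and ENSRNOG00000002336 (189 CPM, next 151). These values lie toward those of hippocampus in the first library and of striatum in the second. The labels give both libraries to the same animal. The first had a median correlation of 0.939 with striatal and 0.986 with hippocampal libraries, and the second 0.933 with hippocampal and 0.983 with libraries of another tissue. Whether the 2 samples were exchanged was not tested.

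The 12-month Q130 library labelled cortex, male 4, was lowest for ENSRNOG00000057221 (130 CPM, next 204) and highest for ENSRNOG00000012349 (32.8 CPM, next 20). The 6-month WT library labelled cortex, male 4, was lowest for ENSRNOG00000057221 (101 CPM, next 190). The 12-month Q130 library labelled striatum, male 3, was lowest for ENSRNOG00000048847 (8.85 CPM, next 19.9), and the 2-month Q130 library labelled cerebellum, male 2, was highest for ENSRNOG00000012349 (61 CPM, next 49.3).

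The remaining 3 were in cerebellum, in libraries that did not stand apart: ENSRNOG00000004179 in WT female 1 at 12 months (0.418 CPM, next 0.146), ENSRNOG00000012349 in Q130 female 2 at 12 months (52.7 CPM, next 42.9) and ENSRNOG00000048847 in WT male 4 at 2 months (6.26 CPM, next 4.48).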

How the results depend on the processing

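In the 11 comparisons of genotype outside striatum at 2 months, and in striatum of 6 and 12 months together, 0 members were called under every alternative run. At 2 months in striatum, which chose the genes, 0 were called in 1 fit over all 60 striatal libraries, where the log2 fold changes were alike and the standard errors larger (0.50 ± 0.18 for ENSRNOG00000004179). Of all 16113 genes in that fit, 0 were called higher and 1 lower. With the repeat libraries in place of first ones 0 were called (0.24 ± 0.16), from which nothing is read, since most repeats did not match their labelled animal. DESeq2 called 1 member for sex in striatum at 2 months, in the libraries that chose the genes, and 1 in hippocampus at 12 months. For age, leaving out libraries that stood apart gave 1 call each in WT cortex, Q130 hippocampus and Q130 cerebellum (ENSRNOG00000002336, -0.15), and DESeq2 gave 1 in Q130 cerebellum (ENSRNOG00000004179, 1.34, near the detection limit).

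Estimates near 0 changed sign. At 6 months in striatum, ENSRNOG00000002336 was 0.027 with limma-voom. At 12 months ENSRNOG00000004179 was -0.033 without libraries that stood apart. Over both ages, ENSRNOG00000004179 was -0.00062 and ENSRNOG00000057221 -0.055 without those libraries, and the latter -0.029 with limma-voom. Between striatum and cortex, ENSRNOG00000048847 was 0.31 in WT at 12 months, -0.15 at 2 months and 0.0091 in Q130 at 6 months, and between striatum and hippocampus -0.064 in WT at 2 months. Leaving out 1 library gave -0.046 to 0.067 for ENSRNOG00000048847 in striatum at 6 months and -0.028 to 0.074 for ENSRNOG00000004179 at 12 months. The cause of these changes was not tested.

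Replicate numbers showed no pairing of animals in striatum at 2 months, where same-numbered libraries had correlations of -0.0937 to 0.0733. In striatum these ran from -0.194 to 0.377 at 6 months and from -0.0945 to 0.0818 at 12 months. The highest in any set was 0.644, in hippocampus at 6 months. At most 4 of 10 pairs matched best by their own number, in cortex at 2 months. With the replicate number as a block, striatum at 6 months gave -0.0015 for ENSRNOG00000048847 and both ages together -0.0015 for ENSRNOG00000057221, and 0 members were called. The batch difference of ENSRNOG00000012349 was -0.29 with and without the animal block. Depth limits ENSRNOG00000004179 in cerebellum, at 0 to 33 counts in WT libraries of 6 months.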
